A study of Danio rerio with 7 samples.

Results

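Exonic differential peaks are regions of open chromatin whose centre lies within an annotated exon and whose accessibility was listed as different between *kdrl*:GFP+ and *kdrl*:GFP− cells of zebrafish embryos. They were chosen as the rows of the deposited table of differential ATAC-seq peaks whose annotation begins with exon, a choice that does not use the measured values. This gave 1479 of 44025 listed peaks (3.36%), in 1338 host transcripts of 1332 genes. Peaks annotated to an untranslated region, a promoter or a transcript end form classes of their own and are not among them. Both cell populations were sorted at 26 to 27 hours post fertilisation from embryos of the transgenic line Tg(*kdrl*:GFP)s843, in which regulatory DNA of *kdrl* drives GFP, and the positive population was the GFP-high part of the GFP+ gate. The negative population is a mixture of the other embryonic tissues, and cells of low GFP were gated apart from both. The sample labels give 3 libraries of *kdrl*:GFP+ cells, labelled endothelial, 3 of *kdrl*:GFP− cells, labelled non-endothelial, and 1 library of genomic DNA from embryos of 28 to 30 hours post fertilisation as a control. The study's methods instead describe the control as DNA of *kdrl*:GFP+ cells that was not treated with transposase. The comparison took in 2 libraries of *kdrl*:GFP+ and 4 of *kdrl*:GFP− cells, after outlying *kdrl*:GFP+ libraries were left out. The table holds 1 mean concentration per population and peak, the log2 of the mean normalized reads, and no value for a single library. It follows that no spread between libraries, no depth and no new test over libraries can be given. The authors' own fold and p-value for each peak were not used. The differences below, all *kdrl*:GFP+ minus *kdrl*:GFP− on the log2 scale, are descriptions of peaks that the authors had already selected as differential.

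ATAC-seq uses a transposase that inserts sequencing adapters into DNA not wrapped in nucleosomes, so that regulatory elements and other exposed DNA stand out as peaks. Most enhancers lie between genes or in introns, but coding exons can also hold regulatory elements, and the chromatin of a transcribed gene body can itself be accessible. The gene *kdrl* encodes a receptor for vascular endothelial growth factor and marks the endothelium, from which the definitive blood stem cells of the embryo emerge.

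The exon position of each peak was measured first, because the annotation is given to a whole peak by its centre. All 1479 centres lay inside an exon of the deposited exon coordinates on the Zv9 assembly. The host gene could be matched by name for 1474 peaks, and among the 1446 whose gene had the same total of exons in both tables the exon number was the same in 1446. The peaks had a median width of 436 bp (200 to 6961 bp), against 502 bp for all listed peaks. The exons that held them were shorter, with a median of 220 bp (39 to 5459 bp), and 72.3% of the peaks were wider than their exon. The median peak therefore had 56.9% of its bases in exons of its gene, with 170 peaks lying in exons along their whole length and 300 touching 2 or more exons. An exonic peak in this table thus in most cases also covers bases outside the exons of its gene.

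Exonic peaks were more often higher in the endothelial population than the table as a whole. Of the 1479, 1012 (68.4%, 95% Wilson interval over peaks 66.0 to 70.7) were on average more accessible in *kdrl*:GFP+ cells and 467 less so, whereas 44.7% of all listed peaks were higher. The median difference was 1.93, with quartiles of −1.35 and 3.86, against a median of −1.19 over all listed peaks. Above a log2 difference of 3, which is 8-fold, there were 520 exonic peaks (35.2%), compared with 17.8% of all listed peaks. Below −3 there were 105 (7.10%), compared with 13.3%. The majority was higher on each of the 25 chromosomes, with shares from 59.5% to 82.5% over 39 to 94 peaks.

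The groups also differed in level. For exonic peaks the median level was 6.25 in the *kdrl*:GFP+ population and 4.53 in the *kdrl*:GFP− population, while all listed peaks had medians of 5.75 and 5.74. Among the higher exonic peaks the median difference was 3.06, larger than the 2.53 of all higher peaks. Among the lower ones it was −2.04, close to the −2.08 of all lower peaks. The smallest difference of a higher exonic peak was 0.76, in exon 1 of 8 of *bace1*, and the lower peak nearest to 0 was at −0.85, in the only exon of *mab21l2*.

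Some differences rest on a shared lowest value. In *kdrl*:GFP− cells 117 of the higher exonic peaks (11.6%) were at 0.22, the lowest concentration listed for that population, and in *kdrl*:GFP+ cells 40 of the lower exonic peaks (8.57%) were at −0.36. The size of these differences depends on that shared value, so they are named apart. At neither lowest value were 1322 exonic peaks, 67.7% of them higher. Over all listed peaks, 1499 of the 19667 higher ones were at the lowest value for *kdrl*:GFP− cells. Likewise 1450 of the 24358 lower ones were at the lowest value for *kdrl*:GFP+ cells. Both are smaller shares than among exonic peaks.

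**Figure D1:**
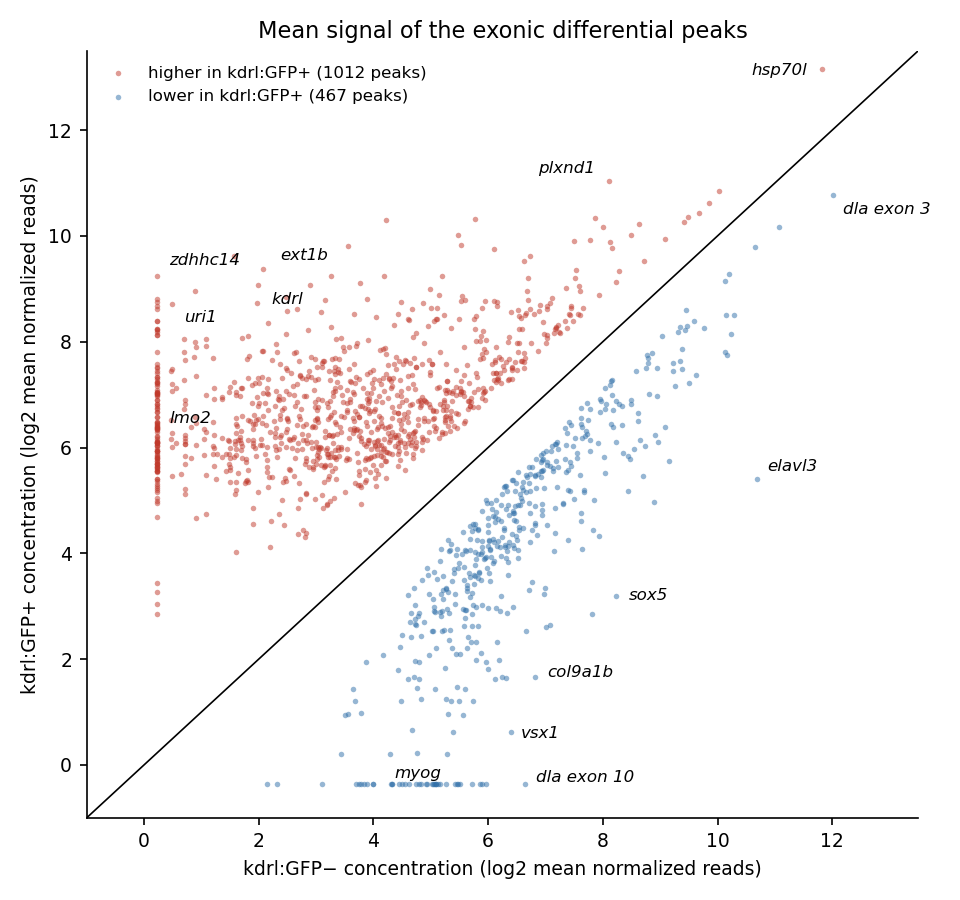
Mean concentration of each of the 1479 exonic peaks in *kdrl*:GFP− cells (x axis) and *kdrl*:GFP+ cells (y axis), both as log2 of the mean normalized reads, with the line of equality. The 1012 red peaks lie above the line and the 467 blue peaks below it. The band along the line is empty because every listed peak differs by at least 0.76. The vertical column at 0.22 and the row at −0.36 are the peaks at the lowest listed value.

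The annotation classes fell into groups by direction. The share higher in *kdrl*:GFP+ cells was 68.6% for 169 peaks in 3′ untranslated regions, with a median difference of 2.03, near the 68.4% and 1.93 of exonic peaks. It was 53.8% for 342 peaks at transcript ends. It was 45.7% for 11319 intronic, 42.9% for 29709 intergenic, 43.0% for 899 promoter and 45.4% for 108 5′ untranslated region peaks, and all of these classes had a negative median. The share of the exonic class was thus near that of 3′ untranslated regions and above those of transcript ends, promoters and introns. Intronic peaks that touched an exon without being centred on it were intermediate. Of these 1512 peaks, 61.0% were higher, with a median of 1.44, whereas of the 9807 intronic peaks that touched no exon 43.4% were higher, with a median of −1.27.

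**Figure D2:**
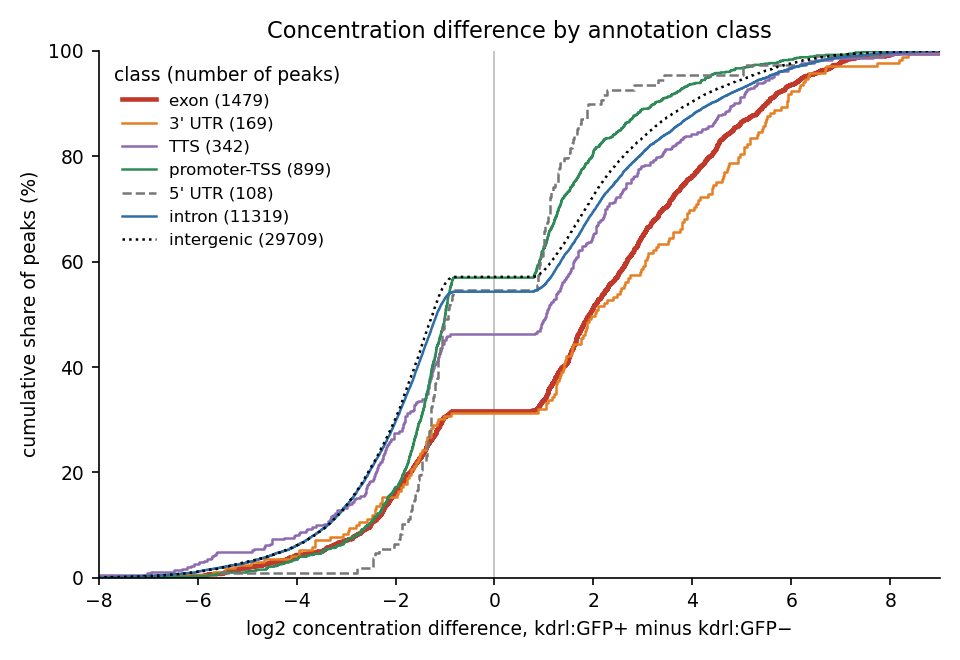
Cumulative share of peaks (y axis, %) by log2 concentration difference, *kdrl*:GFP+ minus *kdrl*:GFP− (x axis), 1 line per annotation class with its number of peaks. The lines for exonic and 3′ untranslated region peaks lie below the others at 0, since 68.4% and 68.6% of these peaks are positive, and no line rises around 0 because every listed peak differs by at least 0.76.

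Direction also varied with the position of the exon in its transcript. The host transcripts had a median of 10 exons (1 to 105). Peaks annotated to a promoter, an untranslated region or a transcript end are separate classes, so first and last exons are counted here only in part. In transcripts of more than 1 exon, the first exon held 101 peaks, of which 56 (55.4%) were higher in *kdrl*:GFP+ cells, with a median difference of 0.90. Internal exons held 1027 peaks, of which 706 (68.7%) were higher, with a median of 2.21. The last exon held 315, of which 229 (72.7%) were higher, with a median of 1.95. The 36 peaks in genes of a single exon resembled those of the first exon, with 21 higher and a median of 0.98. Peaks in the first exon were also wider, with a median of 797 bp, and those in single exons had a median of 1133 bp. Among peaks no wider than the 502 bp median of all listed peaks, 71.4% of 28 in the first exon were higher against 69.9% of 727 in internal exons. The 28 peaks are too few to say whether first and internal exons differ among narrow peaks.

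Large positive differences were less frequent in the first exon, and large negative ones had similar shares throughout. A difference above 3 was found in 12.9% of peaks in the first exon, 38.5% in internal exons and 34.3% in the last exon, and a difference below −3 in 7.92%, 7.30% and 6.35%. Among internal exons divided into 5 equal parts of the exon order, the share higher was 61.3%, 65.6%, 70.2%, 75% and 70.7% from 5′ to 3′. By exon number, 62.0% of 245 peaks in exon 2, 64.5% of 166 in exon 3 and 72.6% of 931 in exon 4 or later were higher. By distance, 56.96% of the 158 peaks within 1 kb of the 5′ end of the gene were higher, 65.6% of 314 between 1 and 5 kb, 72.7% of 484 between 5 and 20 kb and 69.5% of 518 farther away. The 5′ end was that of all exons under the gene name on the chromosome and strand, so copies of a gene were merged. A peak in the only exon of *aplnra*, 415 bp from its promoter, was for this reason placed at 157 kb. Exon number, distance, width and concentration move together in these peaks, and their separate parts were not tested.

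**Figure D3:**
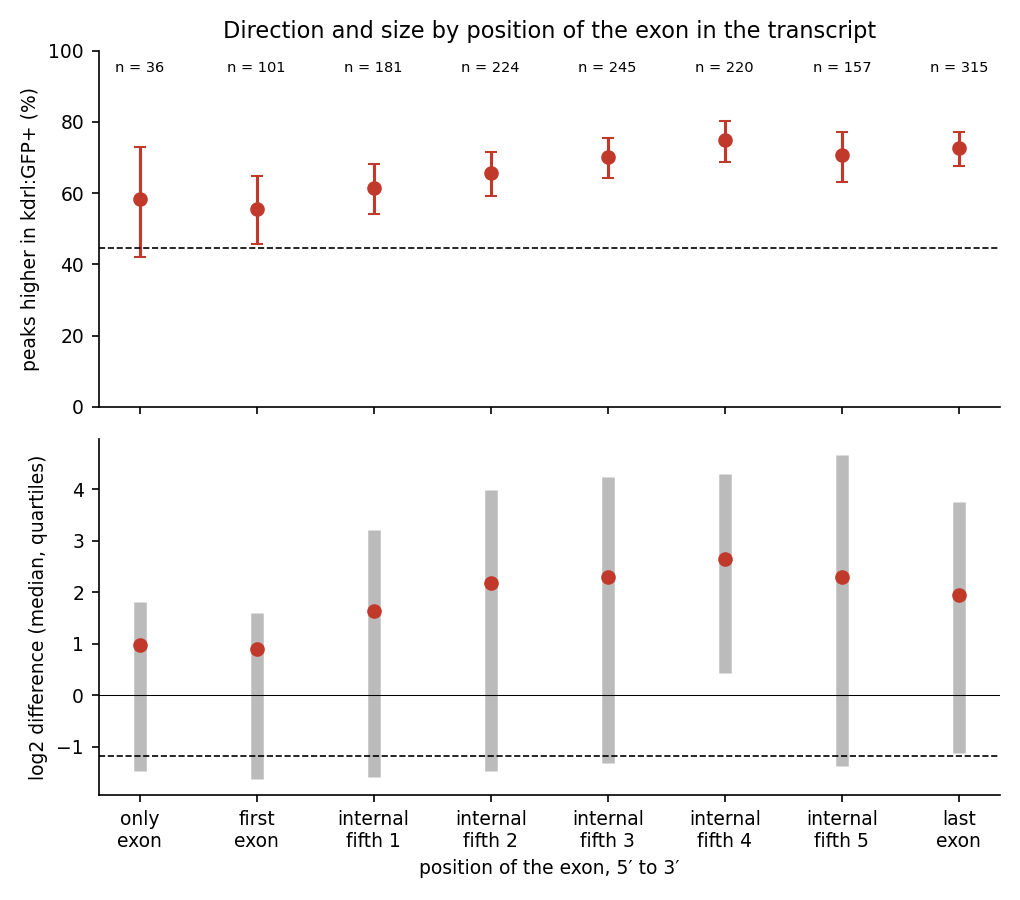
Share of exonic peaks higher in *kdrl*:GFP+ cells (upper panel, %, bars are 95% Wilson intervals over peaks) and their log2 difference (lower panel, points are medians and grey bars quartiles) by position of the exon, with internal exons in 5 equal parts of the exon order. Dashed lines give the 44.7% and the median of −1.19 of all listed peaks, and the share is lowest in the first exon (55.4%) and highest in the fourth part of the internal exons (75%).

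Width and level were followed as measurements that could move with these shares. Exonic peaks were higher more often than all listed peaks in each of 6 width classes, from 69.6% against 49.8% in peaks up to 300 bp to 53.6% against 39.96% in peaks over 1000 bp. By the mean of the 2 concentrations, the share was 69.5% against 48.3% between 2 and 4, 72.9% against 45.5% between 4 and 6, where 764 of the exonic peaks lay, and 63.4% against 43.1% between 6 and 8. Below 2 it was 22.2% against 32.0%, over 18 exonic peaks. Above 8 the exonic share was 48.3% between 8 and 10 and 50.0% between 10 and 12, against 41.4% and 47.9%, over 60 and 6 peaks. The excess over all listed peaks was thus found at mean levels between 2 and 8, and was smaller or absent outside them.

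The host of an exonic peak was usually also its nearest promoter. For 1132 peaks (76.5%) the nearest promoter was that of the host transcript, and for 331 (22.4%) it was that of another gene. The median distance to the nearest promoter was 8.83 kb, against 41.8 kb for all listed peaks. Exonic peaks lay farther from other differential peaks, with a median of 9.90 kb to the nearest peak against 6.73 kb for all. For 356 exonic peaks in 336 hosts, no peak of another class lay in the transcript or had its promoter as the nearest, and 71.9% of them were higher in *kdrl*:GFP+ cells.

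The direction of exonic peaks did not always match that of other peaks in the same gene. An intronic peak was listed in the host transcript of 638 exonic peaks. Of the 436 higher exonic peaks among them, 308 had a positive median over the intronic peaks of their host and 128 a negative one, and of the 202 lower exonic peaks 141 had a negative and 61 a positive one. A promoter peak was listed for 137 exonic peaks, and both had the same direction in 107, 62 higher and 45 lower. Where they differed, 24 exonic peaks were higher beside a lower promoter peak and 6 were lower beside a higher one. Among the 122 hosts with 2 or more exonic peaks, 66 had all of them higher, 18 all lower and 38 both directions. Of the 17 hosts with 3 or more, 8 had all of them higher, 8 had both directions and 1 had all lower. The last was *mtmr8*, of the myotubularin family of lipid phosphatases, with differences from −4.67 to −1.20.

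The gene *kdrl* itself had 1 exonic peak, in exon 21 of 30 (chromosome 14, 33861780 to 33862705, Zv9). It reached 9.07 in the endothelial population against 1.99 in the other cells, a difference of 7.08 or 135-fold. The exon is 154 bp long and 38.6% of the peak lay in exons. The 6 intronic peaks of *kdrl* differed less, from −1.75 to 4.39, with 4 higher. The 2 lower ones, both in the last intron, had *cdx4*, a homeobox gene of posterior development, as their nearest promoter. The haematopoietic regulator genes *gata2a* and *gata2b* each had 0 exonic peaks in the table.

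*rasip1* and *ryr1b* were the only hosts with 4 exonic peaks. *rasip1* encodes a Ras-interacting protein needed for the opening of vascular tubes in mouse. Its peaks in exons 3, 4, 5 and 7 of 15 (chromosome 16, 14281989 to 14292931, Zv9) were all higher in *kdrl*:GFP+ cells. The concentrations were 8.81 and 0.22 in exon 3, the lowest value listed for *kdrl*:GFP− cells, and 8.78 and 3.16 in exon 4. They were 6.58 and 3.49 in exon 5, and 6.53 and 1.82 in exon 7. The differences, 8.59, 5.62, 3.09 and 4.71, stood beside 2.35 at the intronic peak of the gene, 5.56 at its promoter and 5.65 at its transcript end. All listed peaks of *rasip1* were thus higher in *kdrl*:GFP+ cells. *ryr1b* encodes a calcium release channel of skeletal muscle, and its peaks showed both directions. Those in exons 34, 36 and 48 of 105 were higher in *kdrl*:GFP+ cells, by 3.75, 2.17 and 3.01. The peak in exon 80, whose nearest promoter is that of *actmap*, was lower, with a difference of −1.13.

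**Figure D4:**
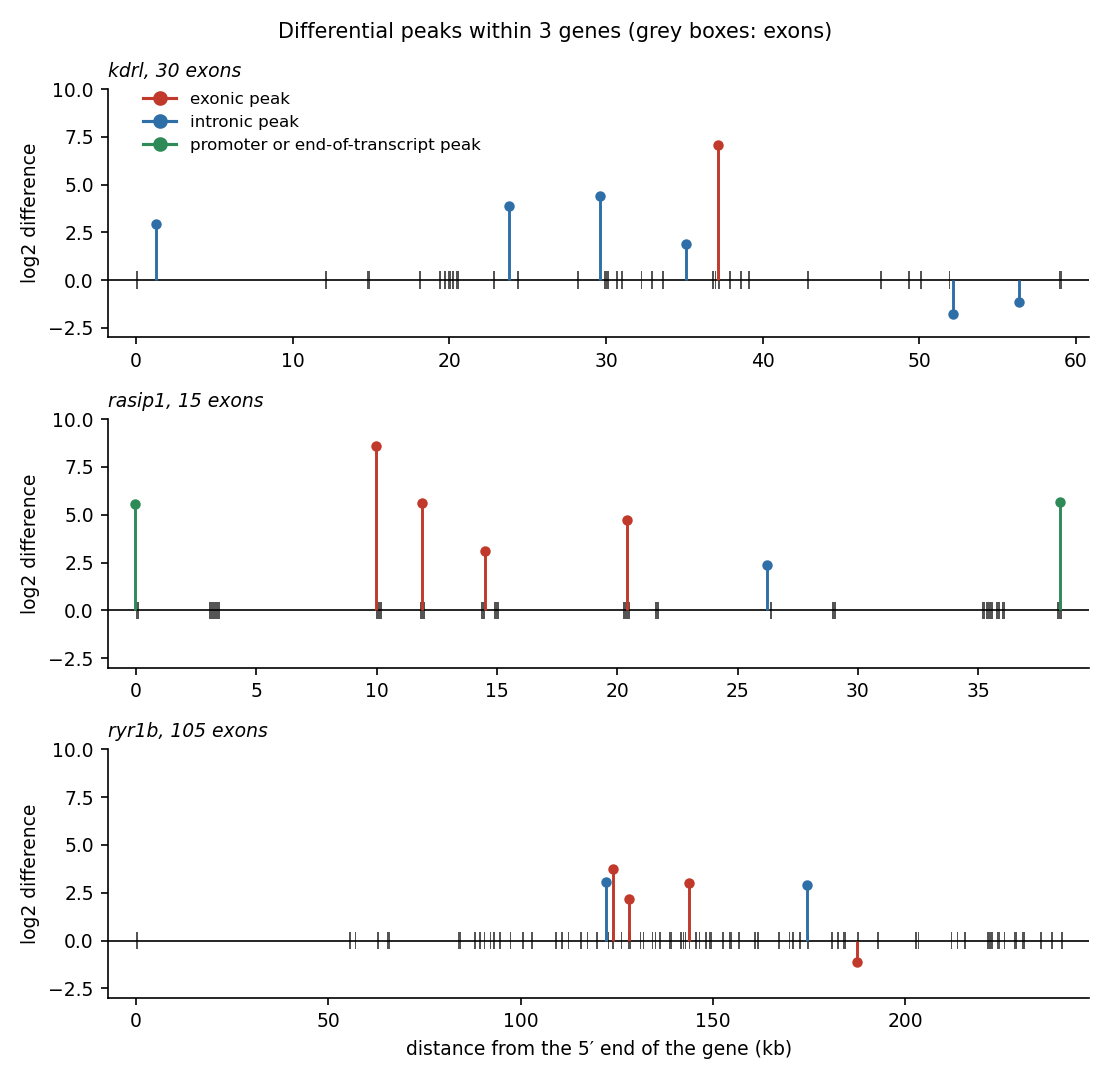
Log2 concentration difference, *kdrl*:GFP+ minus *kdrl*:GFP− (y axis), of the listed peaks within *kdrl*, *rasip1* and *ryr1b* by distance of the peak centre from the 5′ end of the gene in kb (x axis), with exons as grey boxes. Exonic peaks are red, and the exonic peak of *kdrl* at 37.2 kb (7.08) is above its intronic peaks in blue, while all 4 exonic peaks of *rasip1* and 3 of the 4 of *ryr1b* are positive.

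Of 81 genes in a list of endothelial genes, 22 had an exonic peak. Of their 28 exonic peaks 27 (96.4%) were higher in *kdrl*:GFP+ cells, against 68.4% of all exonic peaks, and 16 (57.1%) were above 3, against 35.2%. The median was 3.55. Of the 212 intronic peaks of the list 133 were higher, against 45.7% of all intronic peaks, with a median of 1.90. After *rasip1* and *kdrl*, the largest differences were in *stab1*, a scavenger receptor (exon 11 of 69, 7.21 and 0.22), *kdr*, a further receptor for vascular endothelial growth factor (exon 6 of 32, 7.72 and 0.88), and *lmo2*, a transcriptional co-factor of blood and endothelium (exon 3 of 3, 6.82 and 0.22). These were differences of 6.99, 6.84 and 6.60, of which those of *stab1* and *lmo2* rest on the lowest listed value. The exception was exon 13 of 51 of *vwf*, encoding von Willebrand factor, at 5.12 in *kdrl*:GFP+ cells against 6.23 in *kdrl*:GFP− cells. The lists check the labels only in part, since they hold genes of known endothelial expression and were set with earlier results of these data known.

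Exonic peaks of blood genes were mostly higher as well. Among 45 genes of a haematopoietic list 9 had an exonic peak, and 9 of the 10 peaks were higher, with a median of 3.16. The 95% Wilson interval over these peaks, 59.6 to 98.2%, includes the 68.4% of all exonic peaks. The largest differences were 6.79 in exon 4 of 4 of *lyz*, the lysozyme of myeloid cells (7.01 and 0.22, the lowest listed value), and 4.95 in exon 3 of 6 of *gata1a*, the erythroid regulator (6.83 and 1.89). *irf8*, a regulator of macrophage fate, had 2 exonic peaks, higher by 4.33 in exon 2 and 4.21 in exon 8 of 8. *plcg2*, a phospholipase of immune receptor signalling, was higher by 3.55 in exon 33 of 33. The lower peak was in exon 2 of 2 of *nfe2*, an erythroid and megakaryocyte factor, at −1.60. The 16 intronic peaks of the list were all higher, against 45.7% of all intronic peaks, with a median of 3.72. Whether blood cells were part of the sorted *kdrl*:GFP+ cells was not tested.

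Genes of the nervous system went the other way. Of 69 neural genes 16 had an exonic peak. Of the 17 peaks 4 (23.5%) were higher, against 68.4% of all exonic peaks, with a median of −1.30. The lowest was in exon 2 of 6 of *elavl3*, an RNA-binding protein of neurons, at 5.40 and 10.69, a difference of −5.29. Only 11.8% of this 2716 bp peak lay in exons. The transcription factor genes *six3a*, *lhx5* and *zic1*, of forebrain, interneurons and dorsal neural tissue, were at −2.15, −2.06 and −1.81. Against this direction, exon 14 of 17 of *epha4a*, an ephrin receptor of the hindbrain, was at 7.05 in *kdrl*:GFP+ cells and at the lowest listed value in *kdrl*:GFP− cells, a difference of 6.83. Of the 230 intronic peaks of the list 44 were higher, against 45.7% of all intronic peaks. The 17 exonic peaks of the list were wider than exonic peaks as a whole, with a median of 841 bp against 436 bp. What part width has in their lower share was not tested.

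Muscle and mesoderm genes were divided. Of 55 genes 10 had an exonic peak, and 6 of the 13 peaks were higher, against 68.4% of all exonic peaks. The Wilson interval over these peaks, 23.2 to 70.9%, includes that share. Of the higher peaks 3 were in 1 gene, *ryr1b*. Of the 46 intronic peaks of the list 18 were higher, against 45.7% of all intronic peaks. Exon 2 of 3 of *myog*, a regulator of muscle differentiation, was at −0.36, the lowest listed value, in *kdrl*:GFP+ cells against 5.46 in *kdrl*:GFP− cells. The other lower peaks were in *actn3b* (−2.16), *pax7a* (−2.14), *pax3a* (−2.04), *mef2ca* (−1.55), *actn2b* (−1.53) and exon 80 of *ryr1b* (−1.13). Exon 3 of 3 of *meox1*, a homeobox gene of somites, was higher in *kdrl*:GFP+ cells by 3.06, and exon 8 of 8 of *tbx6*, a T-box gene of presomitic mesoderm, by 2.94. The last exons of *meox1* and *tbx6* thus differed in the opposite direction from *myog*. The remaining higher peak was in exon 3 of 3 of *myod1*, by 1.23.

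Of 32 epidermal and epithelial genes 5 had an exonic peak, and all 5 were higher in *kdrl*:GFP+ cells, against 68.4% of all exonic peaks, a share that lies within the 95% Wilson interval of 56.6 to 100% over so few peaks. Of the 8 intronic peaks of the list 4 were higher, near the 45.7% of all intronic peaks. The 5 exonic peaks were in *ppl* and *evpla*, which encode plakin proteins of cell junctions, in *cdh1*, which encodes E-cadherin, and in the keratin genes *krt18a.1* and *krt8*. The differences were 5.71, 4.05 and 3.62 in the last exons of *ppl*, *evpla* and *cdh1*, and 2.15 and 1.76 in the first exon of both keratin genes. The *ppl* peak was at the lowest listed value in *kdrl*:GFP− cells. Whether epidermal cells were part of the sorted *kdrl*:GFP+ cells was not tested.

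The Notch pathway acts in arterial and blood stem cell fate as well as in neurons. Of 40 genes of the pathway 5 had an exonic peak. Of the 6 peaks 2 were higher, against 68.4% of all exonic peaks. The Wilson interval over these peaks, 9.68 to 70.0%, includes that share. Of the 79 intronic peaks of the list 32 were higher, against 45.7% of all intronic peaks. *dla* and *jag1a* encode Notch ligands and *rfng* a glycosyltransferase that modifies the receptor. *dla* was at the lowest listed value in *kdrl*:GFP+ cells in exon 10 of 12, a difference of −7.01, and at −1.24 in exon 3. *jag1a* was at −4.51 in exon 14 of 27, and *rfng* at −3.27 in exon 2 of 10. *numb*, an inhibitor of Notch, was higher by 4.82 in exon 3 of 11, and *her12*, of the Hairy family of repressors, by 3.28 in exon 2 of 3.

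The remaining lists had few exonic peaks. Of 59 extracellular matrix genes 3 had one, higher in *lamb1a*, a laminin chain (3.32), and *fbn2b*, a fibrillin (2.56), and lower in *thbs4b*, a thrombospondin (−2.76). Of 23 notochord and axial genes 2 had one, lower in *col9a1b*, a collagen chain (−5.16), and higher in *shha*, the Sonic hedgehog ligand (0.93). Of 34 cytoskeleton and motor genes only *dync1h1*, the dynein heavy chain, had one, at −1.76. The share higher of all exonic peaks was 68.4%, and these lists hold too few to compare with it. Of their intronic peaks, 33 of 101 in the matrix list, 5 of 9 in the notochord list and 25 of 38 in the cytoskeleton list were higher. The share of all intronic peaks was 45.7%.

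**Figure D5:**
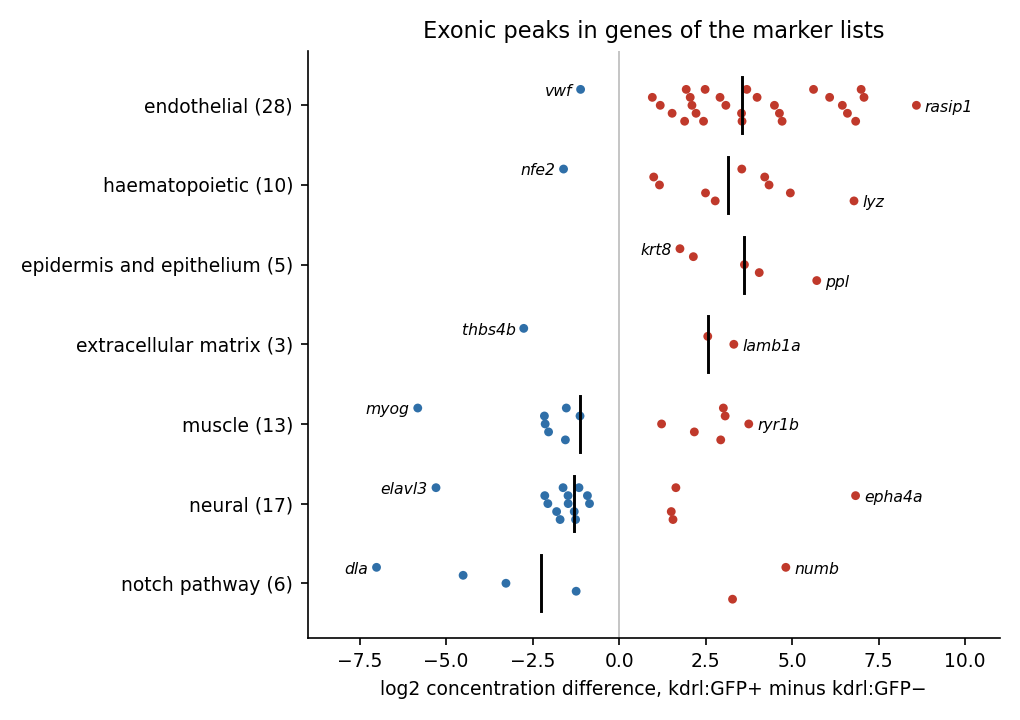
Log2 concentration difference, *kdrl*:GFP+ minus *kdrl*:GFP− (x axis), of each exonic peak in genes of 7 lists (rows, with the number of peaks), red where higher and blue where lower, with the median as a black line and the lowest and highest gene named. The endothelial and haematopoietic peaks are positive except for *vwf* and *nfe2*, whereas 13 of the 17 neural peaks are negative.

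Among peaks that were not at a lowest listed value, only *kdrl* of the 10 largest positive differences was in a gene of the endothelial list. Of these, exon 8 of 11 of *uri1*, which encodes a prefoldin-like protein, had the largest, at 8.72 in *kdrl*:GFP+ cells against 0.49 in *kdrl*:GFP− cells (8.23, chromosome 18, 14286499 to 14286988, Zv9). It was followed by exon 3 of 3 of *pomk*, a kinase of dystroglycan glycosylation (8.08), and exon 5 of 9 of *ildr2*, an immunoglobulin-like membrane protein (8.06). Exon 13 of 13 of *smo*, the transducer of Hedgehog signals, was at 8.06 and 0.69, a difference of 7.37. Exon 9 of 10 of *ext1b*, a heparan sulphate polymerase, was at 9.38 and 2.08, a difference of 7.30. *hadhaa*, a mitochondrial enzyme of fatty acid oxidation (7.12), *ptpn23a*, a phosphatase-like protein of endosomal sorting (7.12), *mfsd13al* (7.01) and *ppp1r13l*, an inhibitor of p53 family proteins (6.99), completed the 10 highest together with *kdrl*. All 10 peaks were between 482 and 933 bp wide, and none lay in exon 1. In *kdrl*:GFP− cells *uri1*, *ppp1r13l*, *smo*, *hadhaa*, *pomk*, *ptpn23a* and *mfsd13al* were at 0.49 to 0.90, not far above the lowest listed 0.22. The size and rank of these differences therefore depend on low values.

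Larger still were peaks for which *kdrl*:GFP− cells were at the lowest listed value. Besides *rasip1*, they were in exon 2 of 10 of *zdhhc14*, a palmitoyltransferase, at 9.25 against 0.22 (9.03), and in exon 12 of 18 of *paxbp1*, a partner of Pax proteins, at 8.74 against 0.22 (8.52).

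The 10 largest negative differences among peaks not at a lowest listed value were in genes of several kinds. Exon 5 of 5 of *vsx1*, a homeobox gene of the retina, was at 0.63 in the *kdrl*:GFP+ population against 6.39, a difference of −5.77. After *elavl3* and *col9a1b* followed *syt11a*, a synaptotagmin of vesicle traffic (−5.06, exon 4 of 4), and *sox5*, a factor of cartilage and neural development (−5.03, exon 8 of 15). The others of the 10 lowest were *col28a2a*, a collagen chain (−4.96), *ttc5*, a protein with tetratricopeptide repeats (−4.76), *mtmr8* (−4.67), *uncx4.1*, a homeobox gene of somites (−4.61), and *ift172*, of ciliary transport (−4.58). The *ift172* peak, in exon 37 of 48, had *mir124-2*, a neuronal microRNA gene, as its nearest promoter. Only 7.93% of the *sox5* peak, 13.7% of the *col9a1b* peak and 18.4% of the *col28a2a* peak lay in exons. In *kdrl*:GFP+ cells *syt11a*, *vsx1*, *ttc5* and *uncx4.1* were at 0.22, 0.63, 0.63 and 0.94, so the size of these differences also depends on low values. At the lowest value listed for *kdrl*:GFP+ cells, besides *dla*, were exon 2 of 5 of *prox2*, a homeobox gene (−6.32), and exon 1 of 2 of *inha*, an inhibin subunit (−6.26).

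The strongest exonic peaks were broad, and most of them differed little between populations. The highest concentration in *kdrl*:GFP+ cells was in exon 2 of 2 of *hsp70l*, a heat shock protein, at 13.16 against 11.82 in *kdrl*:GFP− cells, over 6961 bp. *plxnd1*, the endothelial receptor for semaphorins, followed at 11.03 against 8.11 in exon 1 of 6. *cavin2b*, a caveolar protein, was at 10.84 against 10.02, exon 3 of *dla* at 10.77 against 12.01, and *bace1*, a membrane protease, at 10.61 against 9.86. In *kdrl*:GFP− cells exon 3 of *dla* was the highest, followed by *hsp70l*, by *trim36*, a ubiquitin ligase (11.07 against 10.16 in *kdrl*:GFP+ cells), by *elavl3* and by *mri1*, an enzyme of methionine salvage (10.65 against 9.78). Apart from *plxnd1* (2.92) and *elavl3* (−5.29), these peaks differed by no more than 1.34. Only 11.8% (*elavl3*) to 37.4% (*plxnd1*) of their bases lay in exons, with 33.1% for *hsp70l*. Apart from *elavl3*, their centres were 0.121 kb (*mri1*) to 1.142 kb (*trim36*) from the nearest promoter. The named exon is thus only a part of each peak.

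Gene families were then counted by symbol, a grouping chosen after the values were seen. Of 12 exonic peaks in Hox genes, which pattern the body axis, 11 were higher in *kdrl*:GFP+ cells, by 0.97 to 2.68. The share of all exonic peaks, 68.4%, lies within the Wilson interval of 64.6 to 98.5% over these peaks. None of them exceeded 3, against 35.2% of all exonic peaks. The lower peak was in exon 4 of 5 of *hoxb3a*, at the lowest listed value in *kdrl*:GFP+ cells, with a difference of −5.10. Several Hox peaks lie close together, such as those of *hoxa11a*, *hoxa9a* and *hoxa4a* on chromosome 19 between 19202806 and 19234708 (Zv9). Such peaks are not separate observations. Of 35 exonic peaks in 34 homeobox genes outside the Hox clusters, found by symbol, 7 were higher and 28 lower, with a median of −1.89. The share higher was 20%, against 68.4% of all exonic peaks. The lower ones included the POU genes *pou3f1*, *pou3f2a*, *pou3f2b* and *pou3f3a*, between −1.13 and −2.43.

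Of 36 exonic peaks in 33 solute carrier genes, which encode membrane transporters, 29 (80.6%) were higher, against 68.4% of all exonic peaks, with a median of 2.66. The 95% Wilson interval of 65.0 to 90.2% includes the share of all exonic peaks. *slc27a1a*, a fatty acid transporter, had 3 of them, higher by 2.21, 5.65 and 4.42 in exons 4, 10 and 13 of 13.

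All 10 exonic peaks in 9 genes of the olfactory C receptor family, which encode chemoreceptors of the nose, were higher, by 1.66 to 5.53. The share of all exonic peaks was 68.4%. In exon 6 of 6 lay 9 of the 10 peaks. Apart from those of *olfcq1* (chromosome 18) and *olfcb1* (chromosome 20), all lay on chromosome 14 between 17714745 and 17923475 (Zv9). Most of these peaks thus come from 1 stretch of the genome and are not separate observations. These genes belong to a multigene family, the treatment of reads that map to several copies was not tested, and their values are uncertain.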

How the data were processed

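ATAC-seq libraries of sorted *kdrl*:GFP+ and *kdrl*:GFP− cells were compared by the authors, who used Trimmomatic 0.32 for trimming and BWA 0.7.12 for mapping to the Zv9 assembly, called peaks in each library against the genomic DNA control, kept peaks common to replicates, compared the groups with DiffBind (edgeR method, p below 0.05) and annotated peaks. The scaling of libraries, the handling of duplicate reads and any shift of read ends for the transposase are not given in the sources used here. The deposited concentrations are the log2 of the mean normalized reads of each group as the authors computed them. The labels give 3 libraries per population, the study's methods 2 *kdrl*:GFP+ and 4 *kdrl*:GFP− libraries in the comparison after outliers were removed, and which labelled libraries these were is not given in the sources used here. The table's own fold and p-value columns, the authors' comparison, were not used. A second deposited table, of genes compared between columns named WT and Mo, gave only exon coordinates. Its 6 columns of per-sample values match no sample and were not used, nor were its columns of fold change, mean level and p-value.

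Exonic peaks were selected by annotation, and the difference was taken as the *kdrl*:GFP+ minus the *kdrl*:GFP− concentration. Positions are as deposited on Zv9, and widths count both end bases. Host accessions gave a current symbol in the RefSeq annotation of GRCz12tu for 1439 peaks, used for names only. The table's symbol was used for 36, and 4 had none. Host accessions listed at several genomic positions (27 peaks) are uncertain. No sequence is shown because no genome of this build was used here. Peaks are not replicates, so shares and medians are set beside those of all listed peaks and no test was run. Wilson intervals at 95% treat peaks as independent draws and cover no variation between libraries. The scripts were tested on simulated data. The members, gene lists and comparisons were chosen with earlier results of these data known. Named were the 10 highest and 10 lowest differences not at a lowest listed value, 3 of each direction at it, the 5 highest concentrations per population, at most 5 peaks per list, hosts with 4 exonic peaks, and *kdrl*, *gata2a* and *gata2b*. Further genes, such as *vwf*, *nfe2*, *mtmr8* as a host and family members, were named after their values were seen. A further gene family is not reported here. Tables were computed in Python 3.11.15 with pandas 2.3.3, numpy 2.4.6 and scipy 1.17.1, and plots drawn with matplotlib 3.10.9.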

Additional observations from a re-analysis of the deposited data

How the results depend on the processing

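The alternatives were subsets of peaks, other thresholds and another set of exons. Under each of them most exonic peaks stayed higher in *kdrl*:GFP+ cells, also within each exon position, and the median difference stayed positive. The lower share of the first exon than of internal exons was not seen among narrow peaks, of which the first exon held only 28. Of 58 values, 46 stayed within the 95% interval of the reported value or, for counts, within 1.5 times of it, and 12 moved. Many of the 58 could hardly move. The protein-coding subset kept 1477 of the 1479 peaks, and that without chromosome 4 kept 1439. Internal exons of transcripts of 3 or more exons were by definition the same 1027 peaks. The tally is therefore no measure of robustness. Restricted to peaks up to the median width of all listed peaks, the share higher in *kdrl*:GFP+ cells moved from 68.4% to 71.1%, the median difference from 1.93 to 2.29, the share in the first exon from 55.4% to 71.4% (28 peaks) and that in single exons from 58.3% to 100% (4 peaks). So few narrow peaks in the first exon cannot show whether its lower share is absent among them, and the cause was not tested. Without peaks at a lowest listed value the median difference was 1.77 and 67 peaks were below −3, against 105. Among the 868 peaks with over 50% of their bases in exons, a setting chosen after seeing the data, 284 were above 3 and 64 below −3, and the smaller numbers follow from fewer peaks. At a log2 difference of 2, 723 exonic peaks (48.9%, against 28.9% of all listed peaks) were above and 239 (16.2% against 29.3%) below. At a linear 3-fold difference, 839 (56.7% against 35.3%) were above and 320 (21.6% against 39.3%) below. At a log2 difference of 4, 352 (23.8% against 10.9%) were above and 63 (4.26% against 6.02%) below. No paired analysis was possible because the table holds group means, and for the same reason no replicate could be left out. Depth per library is unknown from the table.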
